A study of Drosophila melanogaster with 3 samples.

Results

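In Drosophila melanogaster embryos, ChIP-seq peaks (sites of enriched chromatin) of the factor Su(H) that lay at the start of a non-coding gene, and at no start of a protein-coding gene, were chosen by position alone. A peak was a member when its summit lay within 500 bp of an annotated start of a gene that makes no protein, with transposable elements and pseudogenes left out, and more than 500 bp from every protein-coding start. The list that the authors thresholded by the agreement of peak ranks between replicates (3833 peaks) held 102 such peaks. That is below the 200 the rule asked for, so the 7666 strongest of the 30000 peaks called on the pooled libraries were used in its place, and 201 of them were members. Of the other strong peaks, 3955 lay within 500 bp of a protein-coding start and 3510 had no counted start within that distance. The 102 thresholded members are among the 201.

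The libraries came from whole embryos of mixed sex, collected over 0 to 24 h, of 1 transgenic line that stably expressed Su(H) with GFP fused to its C-terminus. Chromatin was sheared by sonication (labelled size range 200 to 800 bp) and precipitated with an antibody against GFP, although another label names Su(H) as the antibody. All 3 libraries were labelled as biological replicates of this 1 group, so there was no contrast between conditions, and neither an untagged line nor the control library was analysed here. Read depth is unknown, since the files hold peaks with the authors' signal value and summit rather than reads. In whole embryos, binding in few cells and weaker binding in many cells cannot be told apart.

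Su(H) (Suppressor of Hairless) carries Notch signals to DNA: it recruits repressors where Notch is silent and, with the cleaved Notch receptor and Mastermind, activates target genes where Notch is active. The non-coding genes near these peaks are of several kinds. Long non-coding RNAs (lncRNAs) and antisense RNAs are made by RNA polymerase II, mostly with no known function in the fly. Small nuclear RNAs (snRNAs) form the spliceosome, small nucleolar RNAs (snoRNAs) guide the modification of other RNAs, and transfer RNAs (tRNAs) carry amino acids. MicroRNAs repress messenger RNAs. Most snoRNAs and many microRNAs are cut from longer transcripts, so their annotated start is the end of the processed RNA and need not be a place where transcription begins.

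The windows at 2 of the strongest members are shown first, to let the strongest signal be read beside its letters. Each window holds 201 bases centred on the summit, on the plus strand of dm6, read from the RefSeq genome of that assembly. The first, at the strongest member, held none of the 11 motifs searched. In the second, capitals mark a TATA box (TATAAA) and an initiator (TCAGTT), letters that position the transcription machinery at many fly genes.
lncRNA:CR44619 (chrX:12751321-12751521): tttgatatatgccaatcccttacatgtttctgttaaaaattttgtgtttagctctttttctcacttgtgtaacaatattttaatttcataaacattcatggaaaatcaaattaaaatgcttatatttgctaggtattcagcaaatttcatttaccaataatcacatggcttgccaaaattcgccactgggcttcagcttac
lncRNA:CR31044 (chr3R:29214366-29214566): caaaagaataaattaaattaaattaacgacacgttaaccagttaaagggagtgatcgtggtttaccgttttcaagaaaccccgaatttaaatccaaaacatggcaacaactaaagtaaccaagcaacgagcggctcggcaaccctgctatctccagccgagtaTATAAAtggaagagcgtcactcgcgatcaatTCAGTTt
In the second window the TATA box began 33 bases and the initiator 2 bases before the annotated start of lncRNA:CR31044. A search made after this window had been seen asked how many member starts had such letters in place, on the strand of the gene, with the TATA box beginning 40 to 20 bases before the start and the initiator from 5 bases before to 1 base after it. Of 189 distinct member starts, 10 had the TATA box (5.29%, 95% Wilson interval 2.90 to 9.46%) and 9 the initiator (4.76%, 2.53 to 8.80%). Over all 4107 non-coding starts the shares were 2.58% (2.14 to 3.11%) and 1.66% (1.31 to 2.09%), and over 19276 protein-coding starts 6.86% and 6.68%. The 4107 starts mix all kinds of non-coding gene, and shares by kind were not compared. Both member counts include the start that prompted the search. Only lncRNA:CR31044 had both among the member starts.

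The next windows are those of members with letters of the Su(H) consensus within 100 bp of the summit, the sequence through which Su(H) binds DNA in the test tube and at known target genes. The site searched was YGTGRGAA on both strands, where Y is C or T and R is A or G. Capitals mark it, and in the last window it lies on the minus strand and so reads in reverse complement.
asRNA:CR46105 (chr3R:28340756-28340956): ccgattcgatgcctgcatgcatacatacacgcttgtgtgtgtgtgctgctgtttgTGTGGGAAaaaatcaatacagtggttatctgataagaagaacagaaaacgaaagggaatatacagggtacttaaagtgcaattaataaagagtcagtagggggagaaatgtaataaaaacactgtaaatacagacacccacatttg
lncRNA:CR43174 (chr3L:17934037-17934237): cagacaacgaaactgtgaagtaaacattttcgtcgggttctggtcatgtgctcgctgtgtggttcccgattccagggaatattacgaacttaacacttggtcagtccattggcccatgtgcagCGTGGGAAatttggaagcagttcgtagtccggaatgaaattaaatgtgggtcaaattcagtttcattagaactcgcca
lncRNA:TS2 (chr2L:3587397-3587597): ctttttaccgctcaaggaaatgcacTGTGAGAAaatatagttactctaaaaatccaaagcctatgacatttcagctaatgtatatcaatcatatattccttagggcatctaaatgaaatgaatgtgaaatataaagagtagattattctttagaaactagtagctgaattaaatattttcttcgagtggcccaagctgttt
lncRNA:CR43751 (chr2L:2181628-2181828): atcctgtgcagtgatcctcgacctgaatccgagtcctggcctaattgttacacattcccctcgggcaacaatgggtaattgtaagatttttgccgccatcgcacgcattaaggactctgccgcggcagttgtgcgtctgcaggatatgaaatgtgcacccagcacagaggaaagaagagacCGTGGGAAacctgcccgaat
lncRNA:CR45248 (chr3L:10958711-10958911): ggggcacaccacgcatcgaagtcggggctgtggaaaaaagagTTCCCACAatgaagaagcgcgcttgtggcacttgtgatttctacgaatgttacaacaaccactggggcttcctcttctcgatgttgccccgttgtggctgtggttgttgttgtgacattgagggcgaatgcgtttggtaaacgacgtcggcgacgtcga
A sixth member with the consensus, at lncRNA:CR43644, is described by its values only. The site centres lay 42, 26, 72, 84 and 54 bp from the summit, in the order printed. Both asRNA:CR46105 and lncRNA:CR45248 had TGTGGGAA, lncRNA:CR43174 and lncRNA:CR43751 had CGTGGGAA, and lncRNA:TS2 had TGTGAGAA.

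The last window holds the only match among members to the DREF element (TATCGATA), the binding sequence of a factor found at the promoters of many housekeeping genes. It belongs to the peak with the lower pooled signal of the 2 at lncRNA:Hsromega (75.5 against 87.5). That peak had the higher signal in replicates 1 and 2 and the lower in replicate 3. Hsromega is a heat-inducible nuclear RNA that organises RNA-binding proteins into nuclear speckles. Capitals mark the element, which lay 62 bp from the summit.
lncRNA:Hsromega (chr3R:21295764-21295964): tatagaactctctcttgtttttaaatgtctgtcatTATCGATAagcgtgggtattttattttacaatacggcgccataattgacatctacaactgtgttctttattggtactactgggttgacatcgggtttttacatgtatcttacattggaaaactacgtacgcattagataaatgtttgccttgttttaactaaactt

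Most members were at lncRNAs. By the gene with the nearest start, 139 of 201 (69.2%) belonged to lncRNAs, 18 to antisense RNAs, 12 to snoRNAs, 10 to microRNA precursors, 9 to snRNAs, 9 to tRNAs and 4 to other non-coding RNAs, of which 3 were host genes of snoRNAs. None lay at a ribosomal RNA gene. The 201 peaks had 184 different nearest genes, and 15 genes had several members, with 4 peaks spread over 11896 bp at lncRNA:CR43334. Close peaks are not separate observations: 23 members lay within 500 bp of another, and 12 shared their matching replicate peak with another member.

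The limits of the rule were met by peaks on both sides. The farthest members lay 500 bp (lncRNA:CR45642, pooled signal 75.3), 499 bp (lncRNA:CR43302, 68.7), 498 bp (lncRNA:CR42657, 165) and 496 bp (lncRNA:CR45541, 87.7, and lncRNA:CR43301, 75.5) from a start. Just outside were a peak 501 bp from lncRNA:CR44619 with a pooled signal of 1144, and peaks at 502 bp (snoRNA:Or-aca3, 85.2), 507 bp (lncRNA:CR44517, 231), 510 bp (snoRNA:Me28S-A2589b, 73.0) and 513 bp (lncRNA:CR43648, 94.97). The gene with the strongest member therefore had a second strong peak that missed the limit by 1 bp. Towards protein-coding genes, the closest members lay 517 bp from gl, 522 bp from Moca-cyp, 523 bp from Proc, 530 bp from Boot and 531 bp from dUTPase. The peaks just refused lay 479 bp from Dp, 470 bp from Act5C, 461 bp from prtp, 457 bp from CG10433 and 452 bp from Cap-H2. A further 183 peaks had a non-coding start within 500 bp and were left out because a protein-coding start was as near as that, so members made up 52.3% of the 384 peaks at non-coding starts. The list itself ended between signals of 67.249 and 67.2481, and 592 of the 22334 weaker pooled peaks also met the position rule.

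The strongest member lay 446 bp upstream of lncRNA:CR44619, at chrX:12751155-12751640, and was the tenth strongest peak of the pooled list (rank 10, signal 1617). Its signal was 549.7 in replicate 1, 505.8 in replicate 2 and 580.1 in replicate 3, where it ranked 10, 16 and 11. Its nearest protein-coding start, that of CG4004, was 5104 bp away. The replicates differed by little here, with a coefficient of variation (SD over mean) of 6.86%. The second member, 96 bp upstream of lncRNA:CR31044 (chr3R:29214259-29214613, rank 45), had replicate signals of 304.8, 351.1 and 343.6. The third, 27 bp downstream of the start of lncRNA:CR31840 (chr2L:14023929-14024216, rank 85), had 237.9, 220.5 and 268.6. All of these stood far above the median member in each library, which was 38.0, 41.0 and 36.3. At rank 89 followed the peak at lncRNA:CR44810, with 208.6, 221.1 and 266.6. Its summit lay 4526 bp from the start of slbo, the C/EBP gene needed for border cell migration. Next came lncRNA:CR44867 (rank 101, 205.9, 217.3 and 245.5), whose peak lay in an intron of the opposite-strand gene beat-Ib, of a family of axon guidance genes.

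The rest of the 20 strongest members ranked from 220 to 633, and each of the 20 was found in all 3 replicate lists, with a summit within 200 bp. They were lncRNA:CR46102, in an intron of the lipophorin receptor gene LpR2, lncRNA:CR44380, lncRNA:CR45668 (684 bp from the actin gene Act5C), lncRNA:CR44917 (30826 bp from the nearest protein-coding start), lncRNA:CR45325, lncRNA:CR43644, lncRNA:CR44363, Uhg4, lncRNA:CR43626, asRNA:CR45908, lncRNA:CR44676, lncRNA:CR43650, asRNA:CR45281, asRNA:CR45999 and lncRNA:CR43399, in an intron of ena, which encodes an actin regulator. Distances to protein-coding genes run from the peak summit to the nearest protein-coding start. The summit at lncRNA:CR43644 lay 1046 bp from E(spl)m3-HLH, a repressor gene of the E(spl) complex and a textbook Notch target. This peak had replicate signals of 156.0, 116.1 and 169.8 at rank 298. It was lowest in replicate 2, as was Uhg4, with 148.4, 97.8 and 161.2. Some sites were steadier than others: asRNA:CR45281 had 113.9, 103.5 and 109.9, whereas asRNA:CR45999 had 128.8, 74.8 and 106.0.

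**Figure D1:**
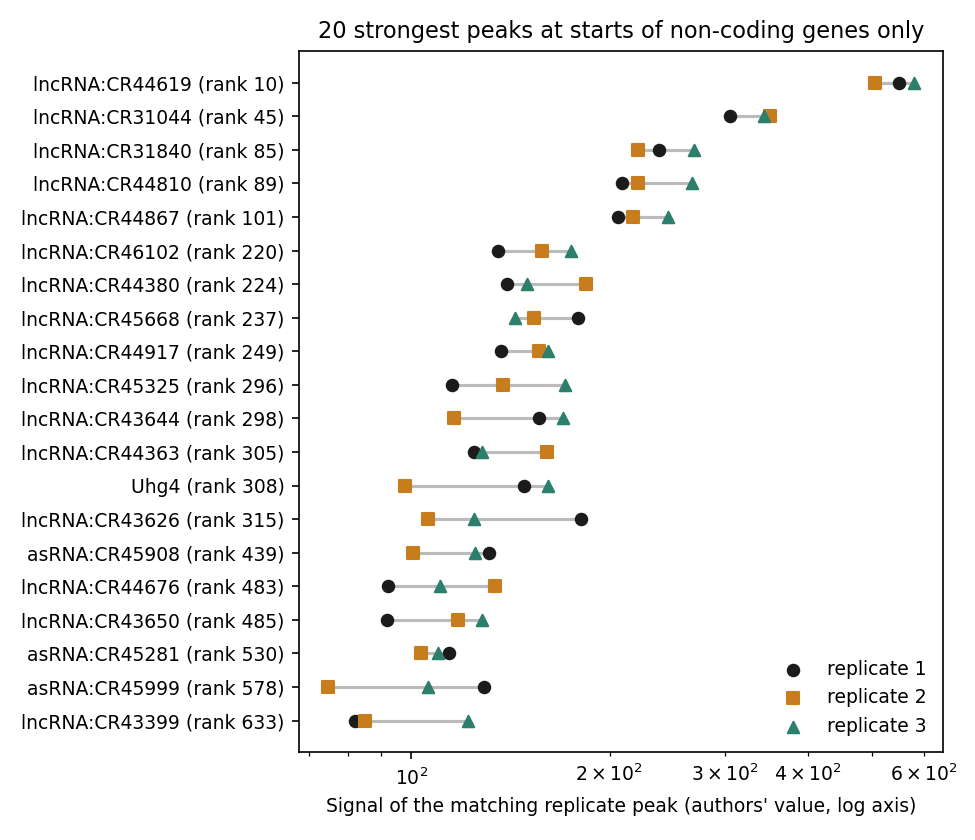
The 20 strongest members, each with the authors' signal of the matching peak in replicates 1 to 3 (log axis) and its pooled rank. The strongest, lncRNA:CR44619, sits between 505.8 and 580.1 in the 3 libraries, above every other member.

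As a class, members ranked like the list they came from. The median pooled signal was 106 for members, 112 for peaks at protein-coding starts and 99.0 for peaks without a start. In the thresholded list were 102 members (50.7%, 95% Wilson interval 43.9 to 57.6%), against a background of 50% of all 7666 strong peaks, so the members' share was near the background. It was 54.8% (53.2 to 56.3%) at protein-coding starts and 44.6% (42.9 to 46.2%) away from starts. The worst pooled rank in the thresholded list was 3833, and that list held 3833 of these 7666 peaks. Here and below, a share in it therefore restates pooled rank and is no separate measure of strength or agreement. Its background of 50% was fixed by the choice of 7666 peaks. Of the 100 strongest peaks, 4 were members, and of the 500 strongest, 17. For scale, members were 201 of all 7666 strong peaks, and 592 of the 22334 weaker pooled peaks met the same position rule. These counts are small and were not tested.

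Median member signal was 38.0 in replicate 1, 41.0 in replicate 2 and 36.3 in replicate 3, over the 179, 199 and 195 members found there. Peaks at protein-coding starts had medians of 41.7, 39.8 and 40.7. Members were thus lower in replicates 1 and 3 and higher in replicate 2, and the log2 difference was −0.09 ± 0.11 (SD, n = 3, exact sign-flip permutation test over replicates, two-sided, p = 0.5). Peaks away from starts had medians of 35.2, 35.5 and 35.5, all below the members. That difference was 0.12 ± 0.09 on the log2 scale (SD, n = 3, higher in 3 of 3 replicates, same exact test, p = 0.25), where 0.25 is the smallest p that 3 replicates allow. Neither difference could therefore reach a threshold of 0.05. In the thresholded list alone, the difference from peaks away from starts was 0.03 and no longer had the same sign in every replicate (p = 0.75, same exact test), and that from protein-coding starts was −0.05 (p = 0.75).

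**Figure D2:**
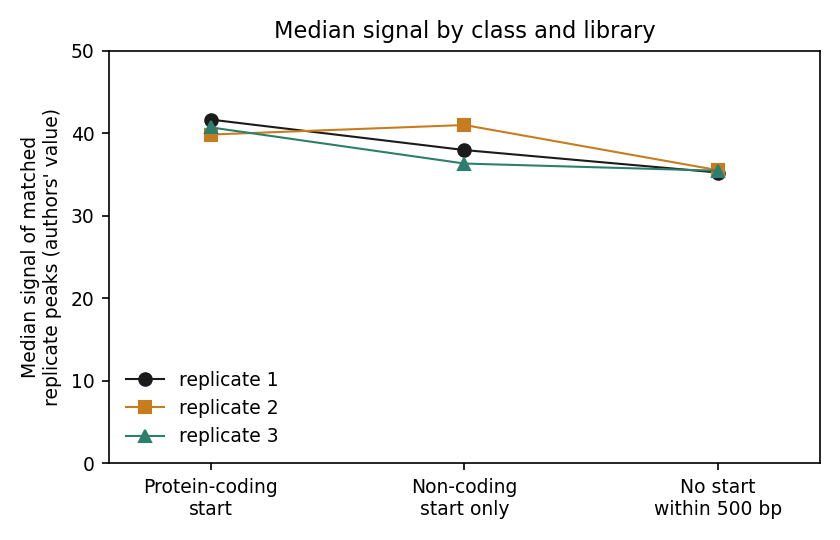
Median signal of matched replicate peaks (authors' value) by class of peak, 1 line for each of the 3 libraries. Members lie above the peaks without a start in each library, and above the protein-coding class in replicate 2 alone, where they reach 41.0.

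Members were found again in the replicate lists about as often as other strong peaks. A summit within 200 bp was present in all 3 lists for 172 members (85.6%, 80.0 to 89.8%), against a background of 86.8%. The lists hold 30000 peaks each and include weak ones, so a weak match counts as well. By replicate, 179 (89.1%), 199 (99.0%) and 195 (97.0%) were found, against 93.4%, 96.5% and 96.5% of all strong peaks. Of the 29 members not found throughout, 22 were missing in replicate 1, 2 in replicate 2 and 6 in replicate 3. Thresholded members were found in all 3 lists in 98 of 102 cases, and the others in 74 of 99. The thresholded list was itself made from agreement between these replicate lists, so this contrast was built in and only describes the peaks. The same split over all strong peaks is not given here.

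The replicate signal of a member varied by 24.0% (median coefficient of variation), close to the 24.4% of all strong peaks. The 201-base windows of members held 40.8% G and C bases (median), those at protein-coding starts 41.3% and those away from starts 38.8%, and thresholded members held 38.3% against 42.8% in the others. By signal, the steadiest were lncRNA:CR46535 (1.59%, with 87.1, 87.7 and 85.0 in replicates 1 to 3), snoRNA:Or-CD4 (4.04%), lncRNA:flam (4.54%), lncRNA:CR44366 (4.74%) and asRNA:CR45281 (4.79%). The most variable was the weaker peak at lncRNA:CR44380 (104%, with 33.4, 184.4 and 34.1), and there the replicate 2 value belonged to the neighbouring stronger peak, so the value describes the matching. The weaker peaks at lncRNA:CR43644 (68.6%) and lncRNA:CR45820 (61.2%) shared a replicate 2 peak in the same way. The weaker peak at mir-14 (63.4%, with 22.0, 12.3 and 45.0) and the peak at lncRNA:CR44206 (61.4%, with 53.2, 25.3 and 16.0) did not.

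Summits of members lay farther from the start than those at protein-coding genes. The median distance was 205 bp (interquartile range 104 to 348 bp) for members and 85 bp (37 to 181 bp) for the protein-coding class. Within 100 bp lay 49 members (24.4%, 19.0 to 30.8%) but 55.9% of the protein-coding class (54.3 to 57.4%), and within 50 bp 11.4% and 33.3%. Members were spread almost evenly over both sides, with 105 upstream and 96 downstream of the start, while the protein-coding class had 2643 upstream and 1306 downstream. In bins of 100 bp, the share of members ran only from 5.47 to 13.9%, and that of the protein-coding class from 1.54 to 36.3%. Positions placed without regard to starts were not measured beside them. The members within 100 bp had a median pooled signal of 120 and 28 of 49 in the thresholded list, and the 152 farther ones 104 and 74. How well the annotated starts of these RNAs mark where transcription begins was not tested.

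**Figure D3:**
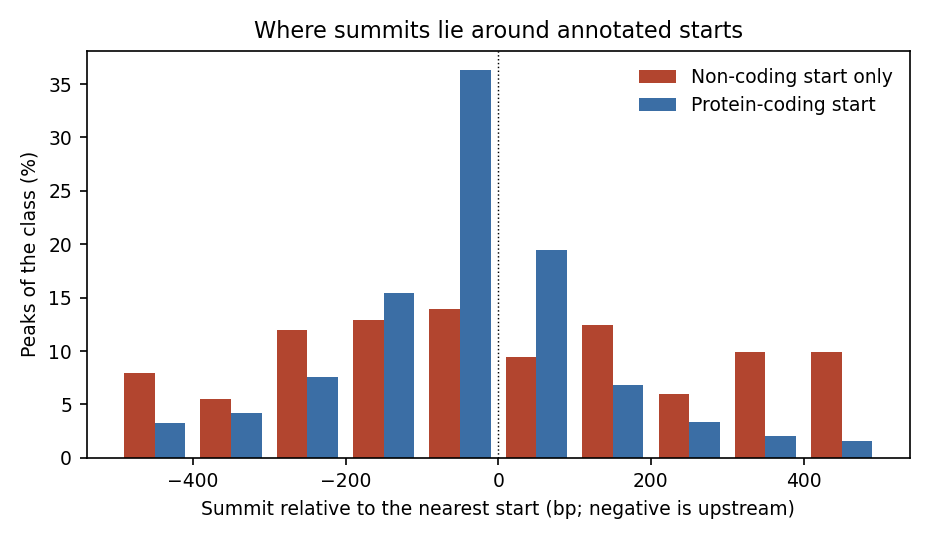
Share of peaks in each class (%) by position of the summit relative to the nearest start, in bp, negative upstream, in bins of 100 bp. The protein-coding class peaks at the start, while members spread across the window, 24.4% of them within 100 bp.

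Most members lay outside protein-coding genes. Of the 201, 131 (65.2%) lay between protein-coding genes, 56 (27.9%) in introns, 10 (4.98%) in coding exons, 3 in 3′ untranslated regions and 1 in a 5′ untranslated region. Of all strong peaks, 36.9% lay between protein-coding genes, 39.96% in introns and 5.75% in coding exons. Between genes lay 44.3% of peaks at protein-coding starts and 26.9% of those away from starts. In introns lay 20.1% and 63.0%. Of the 70 members inside a protein-coding gene, 32 non-coding genes ran on the strand of their host and 38 on the opposite one. Antisense RNAs were on the opposite strand in 13 of 14 cases, which their naming implies, and microRNAs on the same strand in 6 of 6. The nearest protein-coding start was 517 to 48806 bp away, with a median of 2673 bp, and 37 members (18.4%) had one within 1000 bp. Those 37 had 20 peaks in the thresholded list and a median pooled signal of 107, and the 63 members more than 5000 bp from any protein-coding start had 34 and 107. The median was alike at both distances.

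By chromosome, chrX held 25 members (12.4%) against 17.5% of all strong peaks, and 13.6% of non-coding genes. Of the members on chrX, 17 of 25 were in the thresholded list (48.4 to 82.8%, which includes the background of 50%) and 25 of 25 were found in all 3 replicates (86.7 to 100%, against a background of 86.8%). Chromosome 4 held none, where 0 of 31 non-coding genes had a peak, which allows a share of up to 9.68% (3 counts of the total, with a Wilson upper limit of 11.0%).

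Of 43 listed names of non-coding RNAs, some of them synonyms, 35 matched an annotated gene name. The listed 7SK did not, so snRNA:7SKa, which had a member, is not counted here. Of the 35 matched RNAs, 11 had a strong peak at a start (31.4%, 18.6 to 48.0%) and 8 had a member (22.9%, 12.1 to 39.0%). Of all non-coding genes 9.85% had such a peak and 5.30% a member, but the list was chosen with earlier results known. The piRNA cluster flam, whose long transcript is cut into small RNAs that silence transposons in the ovary, had the lowest coefficient of variation of these (4.54%). Its peak lay 143 bp upstream of the start (chrX:21631540-21631955, rank 1193), with 63.2, 68.6 and 68.2 in replicates 1 to 3. The roX genes make the RNAs of the dosage compensation complex, which raises transcription of the male X. At roX1 the summit lay 7 bp downstream of the start (rank 2322), with 49.6, 56.7 and 14.3. Replicate 3 was low there, with the matching peak at rank 21863. At roX2 the summit lay 305 bp into the gene (rank 4866), with 45.2, 15.6 and 25.4, and replicate 2 was lowest. The peaks at Hsromega, 16 and 263 bp upstream of a start, were weak (ranks 5111 and 6377), with 17.4, 16.8 and 37.5, and with 34.2, 18.0 and 34.0.

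Host genes of snoRNAs are transcribed mainly for the snoRNAs in their introns. Uhg4 is given above, Uhg1 had a peak 81 bp upstream (rank 2230, with 49.8, 29.9 and 61.5), and Uhg3 one 8 bp downstream (rank 4740, with 28.7, 23.0 and 43.7). All of these were lowest in replicate 2 and highest in replicate 3. The remaining member among the other non-coding RNAs, sncRNA:204 (rank 3420), is not one of these host genes. It had 36.3, 38.8 and 23.5 and was lowest in replicate 3. Uhg2, Uhg5 and Uhg8 also had strong peaks, at ranks 5956, 5482 and 7090, but with a protein-coding start as near. The microRNA gene mir-14, which limits cell death, had peaks at ranks 4378 and 6863. Of the 24 matched RNAs of the list without a strong peak, 10 had no peak within 500 bp of a start in the whole pooled list. Among them were bxd and iab4 of the bithorax complex, let7C, mir-1, mir-7 and mir-184. The other 14, among them iab8, mir-ban, mir-8, mir-9a and mir-34, had only weaker ones.

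Of the snRNAs, 7SKa was the strongest, an RNA that holds the elongation factor P-TEFb inactive. Its summit lay 220 bp past the start (chr3R:7474568-7474983, rank 919), with 63.8, 102.5 and 78.4. U1:95Ca, one of several copies of the U1 splicing RNA, had 35.9, 89.0 and 92.9 at rank 1065. U4:39B had 41.2, 62.7 and 67.2, U5:63BC 22.6, 59.6 and 42.4, and U1:21D no peak in replicate 1 and 56.8 and 51.2 in the others. Each of these 5 peaks was lowest, or absent, in replicate 1. The weaker second peaks differed: that of U4:39B (rank 7036) had 19.1, 24.1 and 18.2 and was lowest in replicate 3, and that of U5:63BC had no peak in replicate 1. Among tRNAs, Ala-TGC-2-1 (rank 2072) had no peak in replicate 1 and 69.1 and 64.3 in the others, Gln-TTG-2-1 had 39.4, 61.0 and 56.5, and Ser-AGA-2-4 had 26.0, 50.2 and 47.5. iMet-CAT-1-5 had 30.6, 35.6 and 28.7, and Glu-TTC-1-5 had no peak in replicate 1 and 83.2 and 65.7 in the others. Of the 6 tRNA members found in all 3 lists, 2 were lowest in replicate 1, 3 in replicate 2 and 1 in replicate 3, so replicate 1 was not the low library throughout.

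Taken as 1 group after these values had been seen, 7 of 18 members at snRNAs and tRNAs were missing in replicate 1 and 0 of 18 in replicates 2 and 3. Of the other 183 members, 15, 2 and 6 were missing. The 18 are not separate sites, since U4:39B and U5:63BC have 2 members each. The peaks matched to Glu-TTC-1-5 in replicates 2 and 3 are also those of snoRNA:185, which is among the 183. Median signals of the snRNA and tRNA members were 30.6, 51.4 and 39.5 in replicates 1 to 3, and those of the others 38.1, 40.6 and 35.9. Many of these genes have near-identical copies, so the placement of reads is uncertain, and its part in this difference was not tested.

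At snoRNAs and microRNAs the peaks were of middling strength. snoRNA:Or-ACA6, in an intron of egr, the gene of the fly TNF ligand, had 74.1, 68.5 and 92.1 (rank 1017). snoRNA:185 (rank 1254, with 35.9, 83.2 and 65.7) shares its replicate 2 and 3 peaks with the member at tRNA:Glu-TTC-1-5. The snoRNAs Me18S-C1968, Or-CD4 and Psi18S-301 followed with pooled signals of 138, 137 and 135. Among microRNAs, mir-9378 had no peak in replicate 1 and 71.0 and 54.9 in the others, mir-275 had 29.1, 63.6 and 46.0, mir-2491 had 38.8, 41.8 and 44.1, and mir-277 had 47.8, 28.7 and 41.9. mir-2282 lies in an intron of sty, an antagonist of receptor tyrosine kinase signalling, and had 29.6, 26.5 and 45.4. Members at microRNAs and snoRNAs ranked 1017 at best, while lncRNAs reached rank 10, antisense RNAs 439 and other non-coding RNAs 308. The class medians of pooled signal were closer, from 95.2 at tRNAs to 130 at other non-coding RNAs.

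Genes were then counted in place of peaks. Of 3979 non-coding genes, 392 (9.85%, 8.96 to 10.8%) had a strong peak within 500 bp of a start, against 26.7% of all 17947 genes and 31.5% (30.7 to 32.2%) of protein-coding ones. These counts include 481 mature microRNAs, 31 of them with a peak, which are cut from precursors also counted. Without them 361 of 3498 non-coding genes had a peak (10.3%, 9.36 to 11.4%). The share was 9.87% for lncRNAs (192 of 1945), 15.3% for antisense RNAs (77 of 503), 11.7% for snoRNAs (32 of 274), 8.62% for tRNAs (25 of 290) and 6.92% for microRNA precursors (18 of 260). It was 25% for snRNAs (8 of 32, 13.3 to 42.1%), and 0 of 99 ribosomal RNA genes had a peak, which allows a share of up to 3.03% (Wilson upper limit 3.74%). Members account for 211 of the 392 genes, the others being near a protein-coding start as well. Among the 2869 non-coding genes with no protein-coding start within 1000 bp, 176 (6.13%, 5.31 to 7.07%) had a peak. Under that limit the share was 3.35% for antisense RNAs (7 of 209) and 29.6% for snRNAs (8 of 27, 15.9 to 48.5%). Genes that share a peak or a sequence are not independent, and the intervals cover counting error only. A gene counted if any of its starts had a peak. The 13968 protein-coding genes had 19276 distinct starts and the 3979 non-coding genes 4107, so the number of starts per gene differed.

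**Figure D4:**
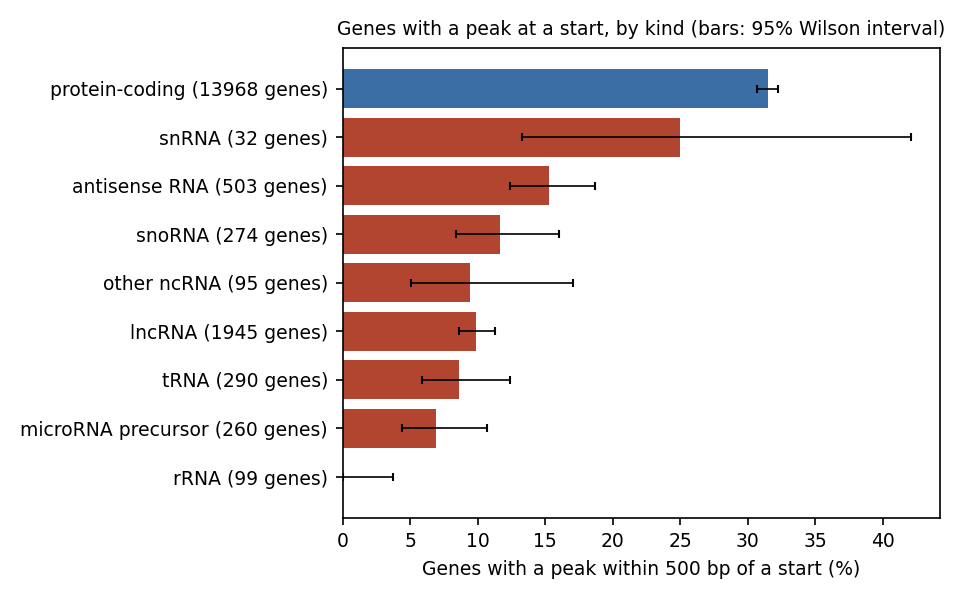
Share of genes of each kind with a strong peak within 500 bp of a start (%), with 95% Wilson intervals and the number of genes in brackets. Protein-coding genes reach 31.5%, and among non-coding kinds snRNAs are highest at 25% with the widest interval.

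Su(H) consensus letters were as rare in members as in other peaks. Within 100 bp of the summit 6 of 201 members had the site (2.99%, 1.38 to 6.36%), against 2.96% of peaks at protein-coding starts, 4.05% of peaks away from starts and 3.46% of all strong peaks. Windows centred 1000 bp to both sides of the members had it in 1.24% (0.532 to 2.88%), and windows at all non-coding starts in 2.36%. The same letters in reversed order, AAGRGTGY, which keep the base composition, were in 6 members as well (2.99%). In the other classes the reversed letters were rarer than the site, with 1.95% (1.56 to 2.43%) against 2.96% (2.47 to 3.53%) at protein-coding starts and 1.91% (1.51 to 2.42%) against 4.05% (3.44 to 4.75%) away from starts. In members, with this window and rule, the site was thus no more frequent than its control, with wide intervals. The order of the site and its control in members changed with the setting, as given in the closing section. The members' interval contains or overlaps the value of each of these sets, so no difference was detectable with this number of peaks. No match says only that these letters are not in the window.

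The values of the members with the site, in replicates 1 to 3, were 36.4, 52.6 and 67.6 at asRNA:CR46105 (rank 1899, in an intron of Moca-cyp), and 28.6, 24.0 and 33.4 at lncRNA:CR43174 (rank 5266). At lncRNA:TS2 the summit lay 6728 bp from the start of sob. That member had no peak in replicate 1 and 36.6 and 26.4 in the others (rank 6107). At lncRNA:CR43751 the summit lay 2974 bp from the start of aop, the gene of the ETS repressor Yan. That member had 29.9, 24.6 and 15.8 (rank 6210), and lncRNA:CR45248 had 24.6, 17.8 and 24.6 (rank 7342). Of the 6, lncRNA:CR43644 and asRNA:CR46105 were in the thresholded list, which held 50.7% of all members. With 6 peaks, a difference from that share was not detectable.

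Letters common at housekeeping promoters were rare in members. The DREF element was in 1 of 201 members (0.498%, 0.0879 to 2.76%), in 326 of 3955 peaks at protein-coding starts (8.24%, 7.43 to 9.14%) and in 0.484% of peaks away from starts. Motif 1 (YGGTCACAC), bound by the factor M1BP, was in 1 member, at lncRNA:CR43334 (0.498%), and in 5.92% (5.22 to 6.70%) and 0.342% of the other classes. Windows on all annotated starts differed in the same direction, with DREF in 6.44% of protein-coding and 0.88% of non-coding starts, and Motif 1 in 5.17% and 0.37%. Of the 183 peaks with both kinds of start, 18 (9.84%) had DREF. Distance from the start moves with both shares in the protein-coding class. Among peaks within 100 bp of the start, DREF was in 0 of 49 members, which allows up to 6.12% (Wilson upper limit 7.27%), and in 12.4% (11.1 to 13.8%) of the protein-coding class. Among peaks farther away it was in 0.658% of members (0.116 to 3.63%) and in 3.04% (2.33 to 3.95%) of the protein-coding class, where the intervals overlap. Motif 1 was in 1 of 49 members within 100 bp (2.04%, 0.361 to 10.7%) and in 9.23% (8.10 to 10.5%) of the protein-coding class there, where the intervals overlap. Farther away it was in 0 of 152 members, which allows up to 1.97% (Wilson upper limit 2.46%), and in 1.72% of the protein-coding class.

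For the other motifs, the members' intervals overlapped those of both other classes. The GAGA repeat (GAGAGAG), bound by GAGA factor, was in 15 members (7.46%, 4.57 to 11.9%), 6.17% of the protein-coding class and 4.56% away from starts, and 11 of the 15 were lncRNAs. The TATA box was in 42 members (20.9%) and 22.5% and 24.1% of the others, and the initiator (TCAGTY) in 44 (21.9%) and 20.5% and 17.8%. The E-box GCAGSTG (S is C or G) was in 6.47%, the Runx site TGTGGTT in 2.49%, and the Zelda site CAGGTAG in 2.49% of members against 0.83% and 1.11%. The B box GGTTCGA, the inner promoter letters of tRNA genes, was in 5 members, 3 of them among the 9 at tRNAs. None of the 11 motifs was in 95 members. All were searched on both strands, matches to different motifs may overlap, and a match describes letters only, not binding.

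**Figure D5:**
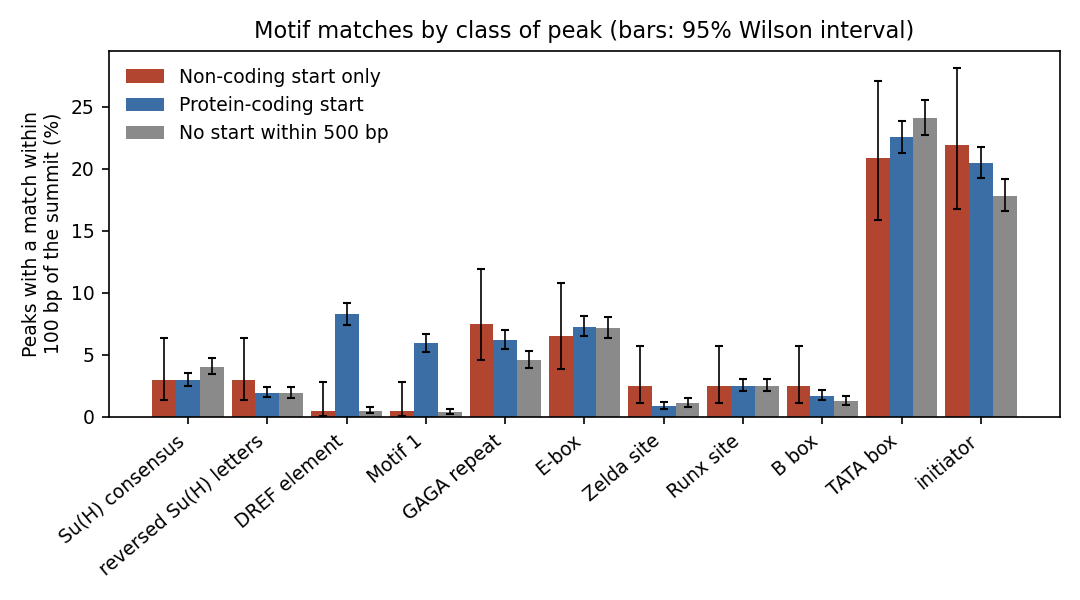
Share of peaks with each motif within 100 bp of the summit (%), for members, peaks at protein-coding starts and peaks with no start within 500 bp, with 95% Wilson intervals. DREF and Motif 1 stand at 8.24% and 5.92% in the protein-coding class and at 0.498% in members.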

How the data were processed

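ChIP-seq peak lists of 3 biological replicates, 1 group, were used on dm6. Per the deposited lists of source files, a replicate list rests on 1 aligned library with a control file, the pooled list on all 3 with a control file, and the thresholded list on these by irreproducible discovery rate. Which aligner, peak caller and rate were used is not given in the sources used here, and the dm3 lists were not used. The signal per peak is the authors' own and not stated to be scaled for depth, so it served to rank and describe peaks, and replicate differences may include depth. The deposited −log10 q value has ties at its maximum and was not used. The summit is the peak start plus the offset deposited by the authors.

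Starts came from Ensembl release 115, and sequence from the RefSeq genome of dm6. A replicate peak matched when its nearest summit lay within 200 bp. Motifs were searched within 100 bp of summits. Shares have 95% Wilson intervals, a count of 0 also has the limit of 3 counts of the total, and classes were compared by the difference of median log2 signal per replicate (exact sign-flip permutation test). Per-peak tests were not made, since peaks are not replicates. The scripts (Python 3.11.15, numpy 2.4.6, pandas 2.3.3, matplotlib 3.10.9) were tested on simulated data.

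The thresholded list held too few members, so the fallback list of the rule was used where the design had planned the thresholded one. Members, motifs and gene lists were chosen with earlier results of these data known. Named genes were those of the 20 strongest members, the 5 strongest of each annotated kind of gene other than the general class of ncRNA, listed known RNAs with a peak, members and peaks nearest the 500 bp limit, the 5 most and 5 least variable members, and those with a Su(H) site, while hosts and nearest genes were named beside them. The sequence of 1 member is not reported here. Alternatives were the list, the window, the matching distance, the motif window, the annotation and leaving out each replicate.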

Additional observations from a re-analysis of the deposited data

How the results depend on the processing

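Of 64 alternatives over 16 results, 42 were counted as unchanged, 22 as moved and 0 as reversed. For both signal differences, every alternative kept its sign and was counted as unchanged. Among these was the fall from 0.12 to 0.03 against peaks away from starts in the thresholded list. The other results are counts or shares, which have no sign to reverse, so the 0 reversed describes the signal differences only. The number of members was 52 among the 2000 strongest peaks, 27 among the 1000 strongest and, as an alternative chosen after seeing the data, 102 in the thresholded list. It was 137 with starts within 250 bp, 267 within 1000 bp and 201 with RefSeq starts. The share found in all 3 replicates was 69.7% for summits within 100 bp, 92.0% within 400 bp, 92.0% for any shared base, 100% among the 2000 strongest and 96.1% in the thresholded list (also chosen later).

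With motif windows of 50 bp to each side, DREF and Motif 1 were in 0% of members, GAGA in 2.49%, the TATA box in 11.9%, the initiator in 10.4%, the Zelda site in 0.498% and the Runx site in 0.995%. With 200 bp, GAGA was in 15.4%, the E-box in 11.4%, the TATA box in 35.8% and the initiator in 39.8%. Wider windows hold more bases. With starts within 250 bp, DREF was in 0% of members. The Su(H) site was then in 5.11% of members and its reversed control in 2.19%. With motif windows of 50 bp they were in 1.49% and 1.99%, and with 200 bp in 4.98% and 3.48%. Each of these values lay within the main interval of its motif. Non-coding genes with a peak were 5.53% within 250 bp and 17.1% within 1000 bp.

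Leaving out each replicate gave log2 differences of −0.15 to −0.05 against protein-coding starts and 0.07 to 0.16 against peaks away from starts. In the thresholded list these differences were −0.05 and 0.03, both with an exact sign-flip permutation p of 0.75. On log2 ranks in place of signal they were −0.15 and 0.20. Classes were compared within each library, and no pairing between groups exists because all 3 libraries form 1 group. Depth is unknown, so no interval for signal could be derived, and 3 replicates cannot give a p below 0.25.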
